A study of Mus musculus with 45 samples.

Results

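The effect of 5xFAD was measured at 12 months of age in the hippocampus of mice that all carried Csf1r-cre and floxed Apoe. The 12 libraries, of 45 in the series, were chosen by sample title alone: 5 with 5xFAD and 7 without it. All were labelled C57BL/6, Apoe(fl/fl) and Csf1r-cre, and the design text gives the floxed allele as homozygous and the Cre transgene as hemizygous. Csf1r-cre expresses Cre recombinase in cells that use the Csf1r promoter, which are microglia and their myeloid relatives, and both groups carry it. Deletion of Apoe in those cells was not measured here. 5xFAD mice carry human transgenes, APP among them, with familial Alzheimer's disease mutations under the neuronal Thy1 promoter, so their amyloid comes from overexpression in neurons. The effect was set beside the same effect in mice labelled Apoe(fl/fl) without Csf1r-cre at 12 months (7 samples with 5xFAD and 3 without) and in Csf1r-cre Apoe(fl/fl) mice at 4 months (4 and 6). The labels give no sex, nor do they state that samples are separate animals. The p-values therefore reflect the variation among libraries, which may be technical. The tissue is bulk hippocampus, in which more cells of a type and more RNA per cell cannot be told apart.

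Microglia, the resident macrophages of the brain, surround amyloid plaques and take up amyloid through receptors such as Trem2 and Clec7a. Near plaques they are known to raise a shared set of genes for phagocytosis, lysosomal digestion, lipid handling and chemokines, and to lower a homeostatic set that includes P2ry12 and Cx3cr1. Astrocytes around plaques become hypertrophic and produce more Gfap, and glia in aged amyloid models also turn on complement, antigen presentation and interferon-stimulated genes.

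Libraries differed beyond their labelled groups. Depth was estimated at 14290750 to 20928397 reads in genes. Csf1r-Cre replicate 2 stood apart, with a median correlation of 0.886 with the other libraries and 2987 TPM of hemoglobin transcripts. TPM is a read share divided by gene length and scaled to the same total in every library. Across 10653 well expressed genes, its longest genes (from 7498 bases) had a median log2 difference of -2.40 from the mean of the other Csf1r-Cre libraries, while its shortest genes (up to 2354 bases) had -0.11. The same difference for long genes was 0.55 in Csf1r-Cre replicate 3, 0.67, 0.82 and 0.55 in 5xFAD Csf1r-Cre replicates 2, 4 and 5, and -0.31 in 5xFAD Csf1r-Cre replicate 3. Summed over 14 striatal markers, Csf1r-Cre replicates 1, 4 and 7 held 4079, 3560.4 and 3803 TPM, 5xFAD Csf1r-Cre replicate 2 held 1676 TPM, and the other 8 libraries held at most 564 TPM. Choroid plexus markers summed to 2702, 6132 and 5345 TPM in Csf1r-Cre replicates 1, 6 and 7 and to at most 2008 TPM in the other 9. Hippocampal markers of CA pyramidal cells were present in all libraries, and their 12 genes summed to 578 to 1078 TPM with 5xFAD and 303 to 691 TPM without.

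**Figure D1:**
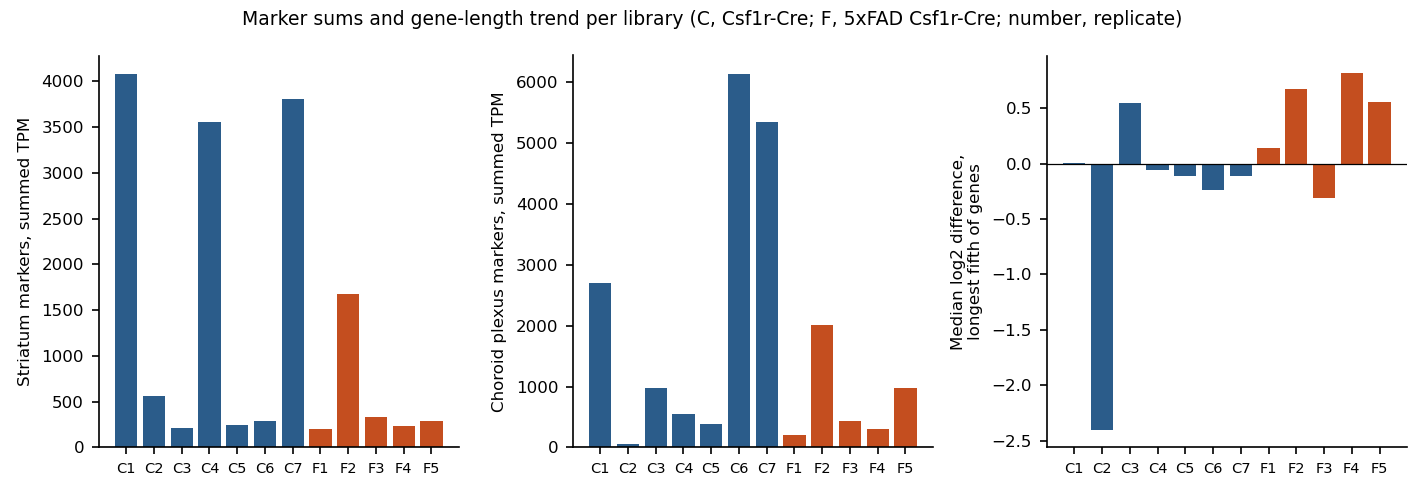
Summed TPM of 14 striatal markers (left) and 12 choroid plexus markers (middle), and the median log2 difference of the longest genes from the mean of the Csf1r-Cre libraries other than replicate 2 (right), 1 bar per library. Csf1r-Cre replicates 1, 4 and 7 are high in striatal markers, replicates 1, 6 and 7 in choroid plexus markers, and replicate 2 is low for long genes at -2.40.

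The 5xFAD samples had higher levels of microglial and astrocytic genes. Of 18659 genes tested, 1124 were called (6.02%), 1056 higher (5.66%) and 68 lower (0.364%) in 5xFAD Csf1r-Cre, at an adjusted p under 0.05 in limma, a linear model with moderated variances, on log2(TPM + 0.5). This model estimated the spread of each gene over all 45 libraries of the series. A fit on the 12 compared libraries alone called 275 genes, 272 higher and 3 lower. The median log2 fold change over all genes tested was 0.27. Without Csf1r-Cre replicate 2 the calls were 662 higher (3.55%) and 45 lower (0.241%), with 658 and 29 of them shared with the fit on all libraries, and the median over all genes was 0.12. After median-of-ratios scaling, which sets the typical gene to no change, the median was -0.02 and the calls were 730 higher and 404 lower (6.1% of genes in all), so 64.4% of calls were higher, against 94% before scaling. Leaving out other single libraries moved the total of 1124 by more than 1.5 times as well: it was 3019 and 707 without Csf1r-Cre replicate 3 or 2, respectively. Omitting 5xFAD Csf1r-Cre replicate 2 left 532 calls, omitting its replicate 3 left 2692 and omitting its replicate 4 left 692. All 5 5xFAD samples lay above all 7 others for 454 genes (2.43%) and below them for 29 (0.155%). Fold changes below are on the log2(TPM + 0.5) scale, which understates the change of genes with low levels.

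Apoe (ENSMUSG00000002985, chromosome 7, 19696109 to 19699188 in mm10), the floxed gene and a lipid carrier made mainly by astrocytes in brain, was present in every sample. It was at 3539, 4282, 3599.9, 3962 and 4621 TPM in 5xFAD replicates 1 to 5 and at 1292 to 4141 TPM (median 3456) in the 7 Csf1r-Cre samples. The ranges overlapped, and the difference of 0.40 on the log2 scale did not pass an exact two-sided permutation test (p = 0.0657, with 0.00253 the smallest p the design allows). Csf1r-Cre replicate 2 was the lowest sample, and with median-of-ratios scaling the difference was -0.01 (exact permutation p = 0.919). Thy1 (ENSMUSG00000032011, chromosome 9, 44043384 to 44048579), the gene whose promoter drives the transgenes, was at 2760.0, 2982, 1076, 2935 and 2016 TPM with 5xFAD and at 244 to 1201 TPM (median 746) without it. It rose (log2 fold change 1.69 ± 0.25 (SE), adjusted p = 7.96e-06), with 5xFAD replicate 3 below the highest Csf1r-Cre sample and the other 4 above all 7. App, whose human counterpart is a transgene, did not pass the test (log2 fold change 0.98 ± 0.44 (SE), adjusted p = 0.148). Csf1r-Cre replicate 2 held 30.6 TPM of App, the lowest of the 12 libraries, and the fold change was 0.43 without it, 0.56 with median-of-ratios scaling and 0.17 with length correction. The table gives mouse genes, and how reads of the human transgenes were assigned is not given in the sources used here. Of 18 genes of App processing or related to the transgenes, 4 rose. They were the transgene-related Thy1, Sorl1, a sorting receptor for App, Adam17, a sheddase, and Itm2b, an inhibitor of App cleavage. Sorl1 (log2 fold change 1.41 ± 0.42 (SE), adjusted p = 0.0377) and Adam17 (log2 fold change 1.11 ± 0.34 (SE), adjusted p = 0.0439) lost the call without Csf1r-Cre replicate 2, at adjusted p = 0.129 and 0.141. Both also lost it without 5xFAD Csf1r-Cre replicate 2, 4 or 5, Sorl1 without 5xFAD Csf1r-Cre replicate 1 or Csf1r-Cre replicate 7, and Adam17 without Csf1r-Cre replicate 4 or 5 (adjusted p up to 0.141 and 0.195). Itm2b had a smaller fold change of 0.48 ± 0.12 (SE, limma adjusted p = 0.0107), although its 5 samples with 5xFAD, 2717, 2490.3, 2266, 2090.0 and 2166 TPM, lay above the 7 without, 1109 to 1991 TPM (median 1703). Without 5xFAD Csf1r-Cre replicate 1 its adjusted p was 0.0516, and with median-of-ratios scaling its fold change was 0.07 (adjusted p = 0.828).

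Genes known to mark microglia at plaques rose, among them the 3 largest fold changes of the comparison, Cst7, Itgax and Clec7a. Of 34 tested members of a plaque-associated list, 27 rose and none fell, with a median log2 fold change of 1.98 beside 0.27 over all genes. Csf1r-Cre replicate 2 moved these numbers little: 26 rose without it, with a median of 1.87. Cst7 (ENSMUSG00000068129, chromosome 2, 150570415 to 150578944), which encodes the protease inhibitor cystatin F, was at 106, 141, 21.8, 70.6 and 42.1 TPM in the 5xFAD samples and at 0 to 2.2 TPM (median 0.754) in the others. The groups did not overlap (log2 fold change 5.65 ± 0.46 (SE), adjusted p = 2.93e-11), and the lowest 5xFAD sample was replicate 3. Itgax (ENSMUSG00000030789, chromosome 7, 128129547 to 128150657), the integrin subunit CD11c, was at 28.9, 48.7, 10.2, 30.5 and 26.7 TPM against 0 to 1.56 TPM (median 0.435). Clec7a (ENSMUSG00000079293, chromosome 6, 129461591 to 129472779), the beta-glucan receptor dectin-1, was at 58.8, 53.3, 21.6, 34 and 19.3 TPM against 0.0801 to 1.56 TPM (median 0.996). Both were separated between groups, with log2 fold changes of 4.73 ± 0.39 and 4.63 ± 0.44 (SE, limma adjusted p = 2.93e-11 and 1.55e-09). Gpnmb, a transmembrane glycoprotein of lysosome-rich phagocytes, was at 72, 157, 17.7, 24 and 38.6 TPM against 1.36 to 6.12 TPM (median 4.18), highest in 5xFAD replicate 2 (log2 fold change 3.64 ± 0.41 (SE), adjusted p = 3.94e-08). Spp1, the secreted phosphoprotein osteopontin, was at 146, 320.4, 55.9, 74.6 and 90.9 TPM against 2.13 to 70.5 TPM (median 10.1). Its groups overlapped, since Csf1r-Cre replicate 7 at 70.5 TPM lay above 5xFAD replicate 3 (log2 fold change 3.50 ± 0.63 (SE), adjusted p = 0.000171). Cd68, a lysosomal glycoprotein of macrophages, was at 142, 182, 39.6, 83.3 and 69 TPM against 6.66 to 17 TPM (median 13.3) without overlap (log2 fold change 2.83 ± 0.28 (SE), adjusted p = 2.74e-09). Atp6v0d2, a subunit of the vacuolar proton pump, was listed at 0 in 6 of the 7 Csf1r-Cre samples and at 0.0396 TPM in the other, and was at 4.48, 3.85, 0.534, 1 and 1.3 TPM with 5xFAD (log2 fold change 2.17 ± 0.21 (SE), adjusted p = 2.01e-09). The 7 members that did not pass were Apoe, Cd63, Lgals3, Fth1, Timp2, Ank and Fabp5.

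**Figure D2:**
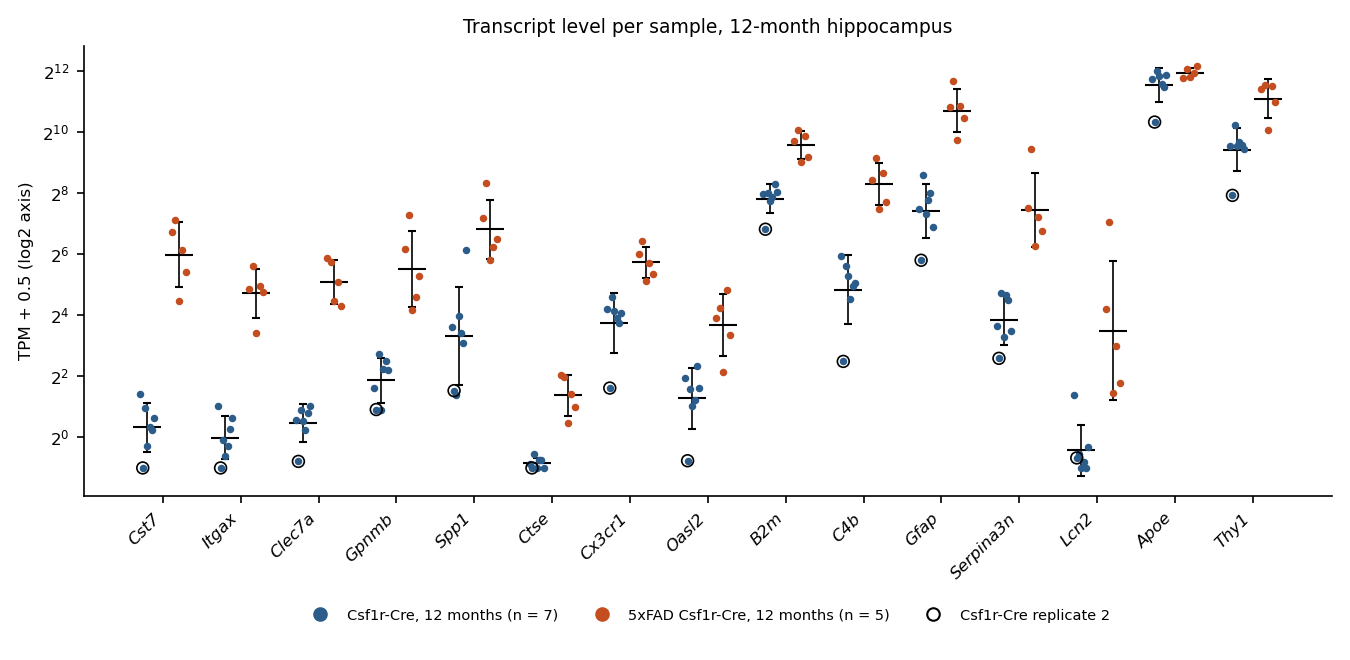
TPM + 0.5 on a log2 axis for 15 genes in the 7 Csf1r-Cre and 5 5xFAD Csf1r-Cre samples at 12 months. Points are samples, bars the mean ± SD on the log2 scale, and circles mark Csf1r-Cre replicate 2, which is the lowest Csf1r-Cre sample for Apoe at 1292 TPM and for Thy1 at 244 TPM. Cst7, Itgax, Clec7a, Gpnmb, Ctse, Cx3cr1, B2m, C4b, Gfap, Serpina3n and Lcn2 do not overlap between groups.

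Receptors of microglia and the kinases and phosphatases behind them mostly rose. Of 19 tested Fc receptor and ITAM signalling genes, 17 rose (median 1.71), as did 14 of 19 phagocytic and scavenger receptors and 15 of 19 pattern recognition receptors. Trem2, a lipid-binding receptor of microglia, was at 162, 177, 67.4, 119 and 86.7 TPM against 21 to 24.7 TPM (median 22), and the Csf1r-Cre samples were tightly grouped (log2 fold change 2.34 ± 0.25 (SE), adjusted p = 8.32e-09). Its signalling adaptor Tyrobp was at 276, 293, 135, 201 and 160.2 TPM against 47.7 to 102 TPM (median 56.8), with the highest Csf1r-Cre value in replicate 2 (log2 fold change 1.76 ± 0.21 (SE), adjusted p = 1.03e-07). Fcer1g, the common gamma chain of Fc receptors, was at 312, 242, 139, 142 and 128 TPM against 36.7 to 63.3 TPM (median 49.8) (log2 fold change 1.87 ± 0.26 (SE), adjusted p = 1.47e-06). None of the 3 overlapped between groups. Fcgr2b, the inhibitory Fc receptor for IgG, had the largest change of the Fc list, from 0.519 to 4.67 TPM (median 3.03) to 33.4, 48.5, 12.4, 24.7 and 21.9 TPM (log2 fold change 3.07 ± 0.30 (SE), adjusted p = 2.01e-09). The activating receptor Fcgr3 had a log2 fold change of 1.78 ± 0.21 (SE, limma adjusted p = 1.07e-07), and Ptpn6, the phosphatase SHP-1 that inhibitory receptors recruit, 2.33 ± 0.28 (adjusted p = 9.05e-08). Vav1, a guanine nucleotide exchange factor downstream of ITAM receptors, was at 8.17, 13.5, 3.27, 7.57 and 5.91 TPM against 0.173 to 2.94 TPM (median 1.63) (log2 fold change 1.94 ± 0.31 (SE), adjusted p = 2.43e-05). The endosomal nucleic acid sensors Tlr7, Tlr9 and Tlr13 rose by 2.25 ± 0.31, 1.39 ± 0.19 and 2.02 ± 0.28 (SE, limma adjusted p = 1.22e-06, 9.64e-07 and 1.66e-06), and in all 3 the 5xFAD samples lay above all others. Cd14, the lipopolysaccharide co-receptor, was at 26.6, 28.9, 15, 14.8 and 12.1 TPM against 2.22 to 5.27 TPM (median 4.61). Its groups were apart as well (log2 fold change 2.06 ± 0.27 (SE), adjusted p = 4.45e-07). Tetraspanins and Ms4a genes rose in 8 of 14 cases. Among them Cd37, a leukocyte tetraspanin, was at 49.7, 45.3, 19.95, 25.8 and 26.5 TPM against 4.04 to 8.62 TPM (median 6.9) (log2 fold change 2.14 ± 0.24 (SE), adjusted p = 2.56e-08). After median-of-ratios scaling, 4 of these 14 genes were called.

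Chemokines, growth factors and their receptors followed. Of 18 tested chemokines and chemokine receptors, 11 rose (median 1.00), and of 22 cytokines, growth factors and receptors, 16 (median 1.13). Ccl3 and Ccl4 encode the macrophage inflammatory proteins. Ccl3 was at 27.2, 30.9, 8.85, 9.24 and 8.87 TPM against 0 to 1.43 TPM (median 0.485) (log2 fold change 3.81 ± 0.45 (SE), adjusted p = 1.07e-07). Ccl4 was at 18, 12.2, 4.92, 4.54 and 4.82 TPM against 0.239 to 1.48 TPM (median 0.807) (log2 fold change 2.73 ± 0.45 (SE), adjusted p = 3.68e-05). For both genes 5xFAD replicates 1 and 2 were well above replicates 3, 4 and 5. Ccl6, a rodent CC chemokine, was at 119, 82, 66.8, 45.9 and 43.1 TPM against 3.59 to 10.4 TPM (median 8.09) and had the highest TPM level of the 4 chemokines of this paragraph (log2 fold change 3.16 ± 0.40 (SE), adjusted p = 2.99e-07). Cxcl16, a transmembrane chemokine, had a log2 fold change of 2.09 ± 0.32 (SE, limma adjusted p = 1.32e-05). Among secreted growth factors, Tgfb1 was at 25.8, 37.3, 9.14, 21 and 17.4 TPM against 2.25 to 11 TPM (median 5.1), and Igf1 at 22, 18.9, 4.28, 13.4 and 8.77 TPM against 1.12 to 5.67 TPM (median 2.49). Both rose (log2 fold change 1.86 ± 0.29 (SE), adjusted p = 1.73e-05, and log2 fold change 2.01 ± 0.36 (SE), adjusted p = 0.000155), although 5xFAD replicate 3 lay within the Csf1r-Cre range for each. Receptors included Csf3r, the receptor for granulocyte colony-stimulating factor, at 14.1, 16.3, 4.82, 16.8 and 7.34 TPM against 0.0287 to 2.48 TPM (median 1.82) (log2 fold change 2.57 ± 0.32 (SE), adjusted p = 1.8e-07). Osmr, the oncostatin M receptor, had log2 fold change 2.62 ± 0.32 (SE), adjusted p = 1.41e-07, and Tnfrsf1b, the tumour necrosis factor receptor 2, had log2 fold change 1.76 ± 0.26 (SE), adjusted p = 9.05e-06.

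Enzymes of digestion and of the oxidative burst rose too. Of 20 cathepsins, cystatins and serpins, 13 rose (median 1.25), and of 27 lysosomal genes, 14 (median 0.77). Ctse, an endosomal aspartic protease, was at 3.59, 3.45, 0.877, 2.2 and 1.49 TPM against 0 to 0.181 TPM (median 0.0418), and 3 of the 7 Csf1r-Cre samples were listed at 0 (log2 fold change 2.22 ± 0.21 (SE), adjusted p = 1.35e-09). The lysosomal cysteine proteases Ctsh and Ctsz had log2 fold changes of 1.54 ± 0.20 and 1.87 ± 0.26 (SE, limma adjusted p = 7.27e-07 and 1.47e-06). Grn, which encodes progranulin, a lysosomal and secreted protein, was at 376, 480.0, 181, 340.0 and 237 TPM against 23.9 to 111 TPM (median 83.6) (log2 fold change 2.06 ± 0.23 (SE), adjusted p = 3.94e-08). Laptm5, a lysosomal membrane protein of haematopoietic cells, was at 607, 706, 269, 431 and 409.5 TPM against 20.3 to 143 TPM (median 106) (log2 fold change 2.35 ± 0.29 (SE), adjusted p = 2.12e-07). In both genes each 5xFAD sample exceeded each other sample. Outside the lists, Hpse, the heparan sulfate-cleaving heparanase, was at 19.4, 12.7, 2.48, 6.09 and 6 TPM against 0.0466 to 0.82 TPM (median 0.341) (log2 fold change 3.33 ± 0.32 (SE), adjusted p = 1.35e-09). Plau, the urokinase plasminogen activator, was at 11.9, 13.9, 3.63, 9.69 and 5.37 TPM against 0.0626 to 1.33 TPM (median 1.05) (log2 fold change 2.84 ± 0.28 (SE), adjusted p = 2.74e-09). Tgm1, a transglutaminase that cross-links proteins, was at 6.84, 12.3, 1.04, 3.31 and 1.82 TPM against 0 to 0.319 TPM (median 0.073) (log2 fold change 2.82 ± 0.31 (SE), adjusted p = 2.38e-08). In each of the 3, 5xFAD replicate 3 was the lowest of its group and still above all Csf1r-Cre samples. Of 15 NADPH oxidase and redox genes, 8 rose. They included the cytosolic oxidase subunits Ncf1 (17.9, 24.3, 6.8, 13 and 9.48 TPM against 1.06 to 3.91 TPM (median 3.17), log2 fold change 2.04) and Ncf4 (1.59), the membrane subunit Cybb (2.12) and the proton channel Hvcn1 (2.20), all at adjusted p of at most 5.37e-05 in limma. Sod1, Sod2, Cat, Nqo1, Gpx1, Gpx4 and Txnip did not pass.

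Genes that mark microglia at rest also rose rather than fell. Of 18 homeostatic markers 13 rose, including P2ry12, Tmem119, Csf1r and Sall1, and none fell, with a median of 1.32. Without Csf1r-Cre replicate 2 the number was 12 and the median 1.14. Cx3cr1, the fractalkine receptor, was at 63.3, 87.2, 34.7, 52.3 and 40.7 TPM against 2.57 to 23.6 TPM (median 16.6) (log2 fold change 1.97 ± 0.31 (SE), adjusted p = 2.04e-05). Fcrls, an Fc receptor-like scavenger protein, was at 187, 157, 77.2, 116 and 98.5 TPM against 11 to 37.3 TPM (median 33.6) (log2 fold change 2.07 ± 0.26 (SE), adjusted p = 3.59e-07). Groups were separate for both. P2ry13, a purinergic receptor, and Olfml3, a secreted matrix protein, had log2 fold changes of 1.43 ± 0.22 and 1.61 ± 0.22 (SE, limma adjusted p = 9.5e-06 and 1.4e-06), below those of Cst7 or Itgax. Sparc, Cst3, Slc2a5, Mef2c and Bin1 did not pass. Summed over the 18 markers, levels were 8476 to 10218 TPM with 5xFAD and 6449 to 9059.9 TPM without, which overlapped. The sum is weighted to the most abundant markers. Csf1r-Cre replicate 2 had the highest sum without 5xFAD, although it was the lowest sample for Cx3cr1 and Fcrls. Taken singly, 11 of the 18 genes had all 5xFAD samples above all others, beside 2.43% of genes tested. The leukocyte genes Ptprc, the phosphatase CD45, and Cd22, a sialic acid-binding inhibitory receptor, had log2 fold changes of 2.14 ± 0.26 and 2.12 ± 0.25 (SE, limma adjusted p = 1.79e-07 and 1.16e-07). Of 14 genes of proliferation, 2 rose, the D-type cyclin Ccnd1 (1.03 ± 0.26, adjusted p = 0.0114 in limma) and the replication helicase subunit Mcm3 (1.06 ± 0.30, 0.0245), and Mcm3 lost the call without Csf1r-Cre replicate 2 (adjusted p = 0.0815) or any of 5xFAD Csf1r-Cre replicates 2, 4 and 5, and Ccnd1 without 5xFAD Csf1r-Cre replicate 2 (0.0635).

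The transcription factors of the myeloid lineage rose with these genes. Of 17 tested, 12 rose, with a median of 1.10. Spi1, which encodes PU.1, the factor that specifies macrophages and microglia, was at 34.9, 44.8, 22.2, 30.9 and 24.5 TPM against 3.62 to 12.7 TPM (median 8.21) (log2 fold change 1.86 ± 0.24 (SE), adjusted p = 3.38e-07). Irf8, its partner in microglia, was at 32, 37.8, 11.6, 28.6 and 18.7 TPM against 1.63 to 6.07 TPM (median 4.86) (log2 fold change 2.40 ± 0.29 (SE), adjusted p = 1.19e-07). Both were separated between groups. Cebpa rose by 1.497 ± 0.24 and Runx1 by 1.53 ± 0.26 (SE, limma adjusted p = 3.22e-05 and 7.9e-05). With values corrected for the length trend Runx1 was at 0.73 (adjusted p = 0.163).

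Promoters were searched for the letters of 2 known binding motifs, those of PU.1 and of the interferon regulatory factors, the families of Spi1 and Irf8. The windows are RefSeq's, on GRCm38.p6, from 250 bases before to 50 after each gene's start, for 27025 genes. The letters were GAGGAAGT for PU.1 and GAAA, NN and GAAA in a row for the interferon-stimulated response element, on both strands, and in no window did the matches of both overlap. The PU.1 letters stood in 69 of 813 called higher genes with a window (8.49%), beside 3.39% of 12674 genes tested and 3.69% of all. The response element letters stood in 66 of these genes (8.12%), beside 3.66% of genes tested and 3.99% of all. Of the interferon-inducible GTPases, all 9 with a window held them, 6 of which were called. Of 27 plaque-associated genes with a window, 1 held the PU.1 letters (3.70%) and 3 the response element letters (11.1%). The PU.1 letters stood in 0 of the 9 GTPases, 0 of 21 interferon response genes and 0 of 13 MHC class I genes. Among genes called lower, 2 of 53 held the PU.1 letters and 1 the response element. A match is a description of the letters and not of a bound site. The listed genes with the largest fold changes among those with a match upstream of the start are printed. Genes on 1 chromosome, that of Cd14 and Cd74, were left out of this choice. Each stretch has up to 30 bases on each side, upstream of the start, 5′ to 3′ on the gene's strand, with the match in capitals. For the PU.1 letters, which read ACTTCCTC where they lie on the other strand, they were:
Spp1, chr5:104434968-104435035, plus strand: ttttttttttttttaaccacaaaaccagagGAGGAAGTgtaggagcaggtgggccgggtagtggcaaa
Cd37, chr7:45238840-45238894, minus strand: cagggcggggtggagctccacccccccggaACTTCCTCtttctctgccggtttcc
C1qc, chr4:136893072-136893139, minus strand: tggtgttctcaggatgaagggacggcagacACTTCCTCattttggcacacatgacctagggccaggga
Vav1, chr17:57279059-57279099, plus strand: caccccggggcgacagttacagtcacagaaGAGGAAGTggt
For the response element, which in Spp1 lies on the other strand, they were:
Spp1, chr5:104434924-104434993, plus strand: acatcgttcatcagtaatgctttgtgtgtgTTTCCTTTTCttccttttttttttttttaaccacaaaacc
Cxcl10, chr5:92349063-92349132, minus strand: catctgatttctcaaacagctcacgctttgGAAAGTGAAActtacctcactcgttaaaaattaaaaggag
Cybb, chrX:9469325-9469383, minus strand: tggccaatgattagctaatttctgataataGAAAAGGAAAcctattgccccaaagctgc
Ncf1, chr5:134229668-134229737, minus strand: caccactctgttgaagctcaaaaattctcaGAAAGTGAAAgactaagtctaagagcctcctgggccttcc
The capitals in Vav1 end 4 bases before the start and those in Cybb 20 bases before it, while those in Cxcl10 begin 213 bases before it. The window of Cybb held 3 matches, and only that nearest the start is printed. Cxcl10, an interferon-induced chemokine, was at 8.22, 7.46, 1.74, 7.78 and 5.21 TPM against 0.197 to 3.02 TPM (median 0.432), with Csf1r-Cre replicate 6 at 3.02 TPM above 5xFAD replicate 3 (log2 fold change 2.38 ± 0.47 (SE), adjusted p = 0.000522). Cybb, the catalytic subunit of the phagocyte oxidase, was at 5.35, 4.12, 2.9, 11.6 and 3.303 TPM against 0 to 1.89 TPM (median 1.07) without overlap (log2 fold change 2.12 ± 0.36 (SE), adjusted p = 5.37e-05).

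Interferon-stimulated genes, antigen presentation and complement rose. Of 28 interferon response genes 24 rose (median 1.36) and of 13 tested interferon-inducible GTPases 9 (median 1.00). Without Csf1r-Cre replicate 2 these numbers were 18 and 6. Oasl2, an oligoadenylate synthetase-like protein, was at 14.5, 18.2, 3.88, 28.1 and 9.65 TPM against 0.0891 to 4.51 TPM (median 2.52). It was highest in 5xFAD replicate 4, and replicate 3 lay within the Csf1r-Cre range (log2 fold change 2.41 ± 0.41 (SE), adjusted p = 6.08e-05). The guanylate-binding protein Gbp2 was at 7.34, 11.9, 3.36, 21 and 7.82 TPM against 0.211 to 3.98 TPM (median 2.3) (log2 fold change 1.97 ± 0.40 (SE), adjusted p = 0.000768). The immunity-related GTPase Igtp was at 5.94, 6.31, 3.54, 28.6 and 6.98 TPM against 0.158 to 3.82 TPM (median 2.44) (log2 fold change 1.68 ± 0.37 (SE), adjusted p = 0.00246). Replicate 4 was thus the highest 5xFAD sample in all 3. Irgm1, which regulates the other GTPases of its family, had groups apart and log2 fold change 1.66 ± 0.29 (SE), adjusted p = 9.59e-05. Lower in level were Oas1a, Mx1, an antiviral GTPase, and Zbp1, a sensor of Z-form nucleic acids, with log2 fold changes of 1.66 ± 0.29, 1.06 ± 0.17 and 1.36 ± 0.22 (SE, limma adjusted p = 0.000114, 2.62e-05 and 4.17e-05). Mx1 was at 1.34, 0.866, 0.262, 0.999 and 0.16 TPM and was listed at 0 in 4 of 7 Csf1r-Cre samples.

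Of 15 MHC class I genes and their peptide-loading partners, 14 rose (median 1.495), H2-T22 being the exception. B2m, the small subunit that pairs with class I heavy chains, was at 843, 1090.1, 523, 936 and 589 TPM against 113 to 313 TPM (median 249.6) (log2 fold change 1.76 ± 0.23 (SE), adjusted p = 8.09e-07). The heavy chains H2-K1 (241, 321, 141, 275 and 161 TPM against 25.3 to 95.1 TPM (median 71)) and H2-D1 (568.04, 1034, 387, 924 and 537 TPM against 29.7 to 306 TPM (median 218)) rose by 1.88 ± 0.29 and 1.91 ± 0.33 (SE, limma adjusted p = 1.4e-05 and 6.67e-05), and the peptide transporter Tap1 by 1.63 ± 0.26 (adjusted p = 2.8e-05). All 4 were separated between groups. Reads of near-identical class I genes may be split between them. Class II genes were more uneven, with 3 of 6 tested called. Cd74, the invariant chain, was at 15.3, 46.8, 11.7, 124 and 40.7 TPM against 0 to 16.8 TPM (median 4.62), and H2-Ab1, a class II beta chain, at 19.7, 29.1, 15.9, 73.6 and 26.4 TPM against 1.58 to 20.4 TPM (median 5.73). Both were highest in 5xFAD replicate 4, and their groups overlapped (log2 fold change 2.74 ± 0.66 (SE), adjusted p = 0.00627, and log2 fold change 2.09 ± 0.52 (SE), adjusted p = 0.00825). Without 5xFAD Csf1r-Cre replicate 4 both lost the call, at adjusted p = 0.0519 and 0.0604.

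Of 14 complement genes 9 rose. C1qa and C1qc, chains of the initiating C1q molecule, were abundant: C1qa was at 829.2, 971, 463, 728 and 473 TPM against 162 to 202 TPM (median 182), and C1qc at 579, 752, 310.2, 396 and 357 TPM against 87.9 to 130.2 TPM (median 119). Neither overlapped between groups (log2 fold change 1.86 ± 0.21 (SE), adjusted p = 2.17e-08, and log2 fold change 1.97 ± 0.21 (SE), adjusted p = 1.72e-08). C4b, a component that follows C1q and is made by astrocytes and oligodendrocytes, changed more, from 5.13 to 60.6 TPM (median 33.1) to 348, 569, 180.3, 406 and 211 TPM (log2 fold change 3.46 ± 0.42 (SE), adjusted p = 1.41e-07). C3ar1, the receptor for the C3a fragment, was at 8.72, 8.76, 3.79, 5.09 and 4.62 TPM against 0.247 to 1.25 TPM (median 0.898) (log2 fold change 2.26 ± 0.25 (SE), adjusted p = 1.73e-08). Others that rose were C1qb, C3, C5ar1 and Serping1.

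Astrocytic reactivity genes rose, and astrocytic housekeeping genes mostly did not pass. Of 24 tested reactive astrocyte genes 18 rose (median 2.06), and of 16 homeostatic astrocyte genes 2 (median 0.63). Gfap (ENSMUSG00000020932, chromosome 11, 102887336 to 102900912), the intermediate filament of astrocytes, was at 1833, 3276, 851, 1841 and 1414 TPM against 55.5 to 384 TPM (median 181) (log2 fold change 3.298 ± 0.38 (SE), adjusted p = 5.43e-08). Serpina3n, a secreted protease inhibitor, was at 183, 704, 76.8, 150.1 and 108 TPM against 5.53 to 25.9 TPM (median 12.1) (log2 fold change 3.61 ± 0.45 (SE), adjusted p = 2.03e-07). Lcn2, the iron-carrier lipocalin 2, was at 18.1, 133, 2.21, 7.4 and 2.98 TPM against 0 to 2.09 TPM (median 0.128). Timp1, an inhibitor of metalloproteinases, was at 6.65, 55.7, 3.7, 3.41 and 2.41 TPM against 0 to 0.784 TPM (median 0.433). 5xFAD replicate 2 was highest in all 4, and in Lcn2 and Timp1 it was far above the rest of its group, whereas replicate 3 was the lowest for Gfap, Serpina3n and Lcn2. Lcn2 and Timp1 rose (log2 fold change 3.92 ± 0.59 (SE), adjusted p = 8.75e-06, and log2 fold change 2.98 ± 0.45 (SE), adjusted p = 1.2e-05) and kept the call without that library, at adjusted p = 8.28e-05 and 7.48e-05, with log2 fold changes of 3.03 and 2.23. Cd44, the hyaluronan receptor, and Aspg, an asparaginase, had log2 fold changes of 2.47 ± 0.31 and 2.86 ± 0.32 (SE, limma adjusted p = 3.3e-07 and 3.94e-08). The 2 homeostatic genes were Aqp4, the water channel of astrocyte endfeet (log2 fold change 1.41 ± 0.41 (SE), adjusted p = 0.0301), and Mlc1, a membrane protein of endfeet (log2 fold change 0.57 ± 0.18 (SE), adjusted p = 0.0493). Without Csf1r-Cre replicate 2 both lost the call (adjusted p = 0.102 and 0.169), as they did without 5xFAD Csf1r-Cre replicate 2, 4 or 5, and Mlc1 also without Csf1r-Cre replicate 1, 5 or 6 or 5xFAD Csf1r-Cre replicate 1 (up to 0.141 and 0.171).

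**Figure D3:**
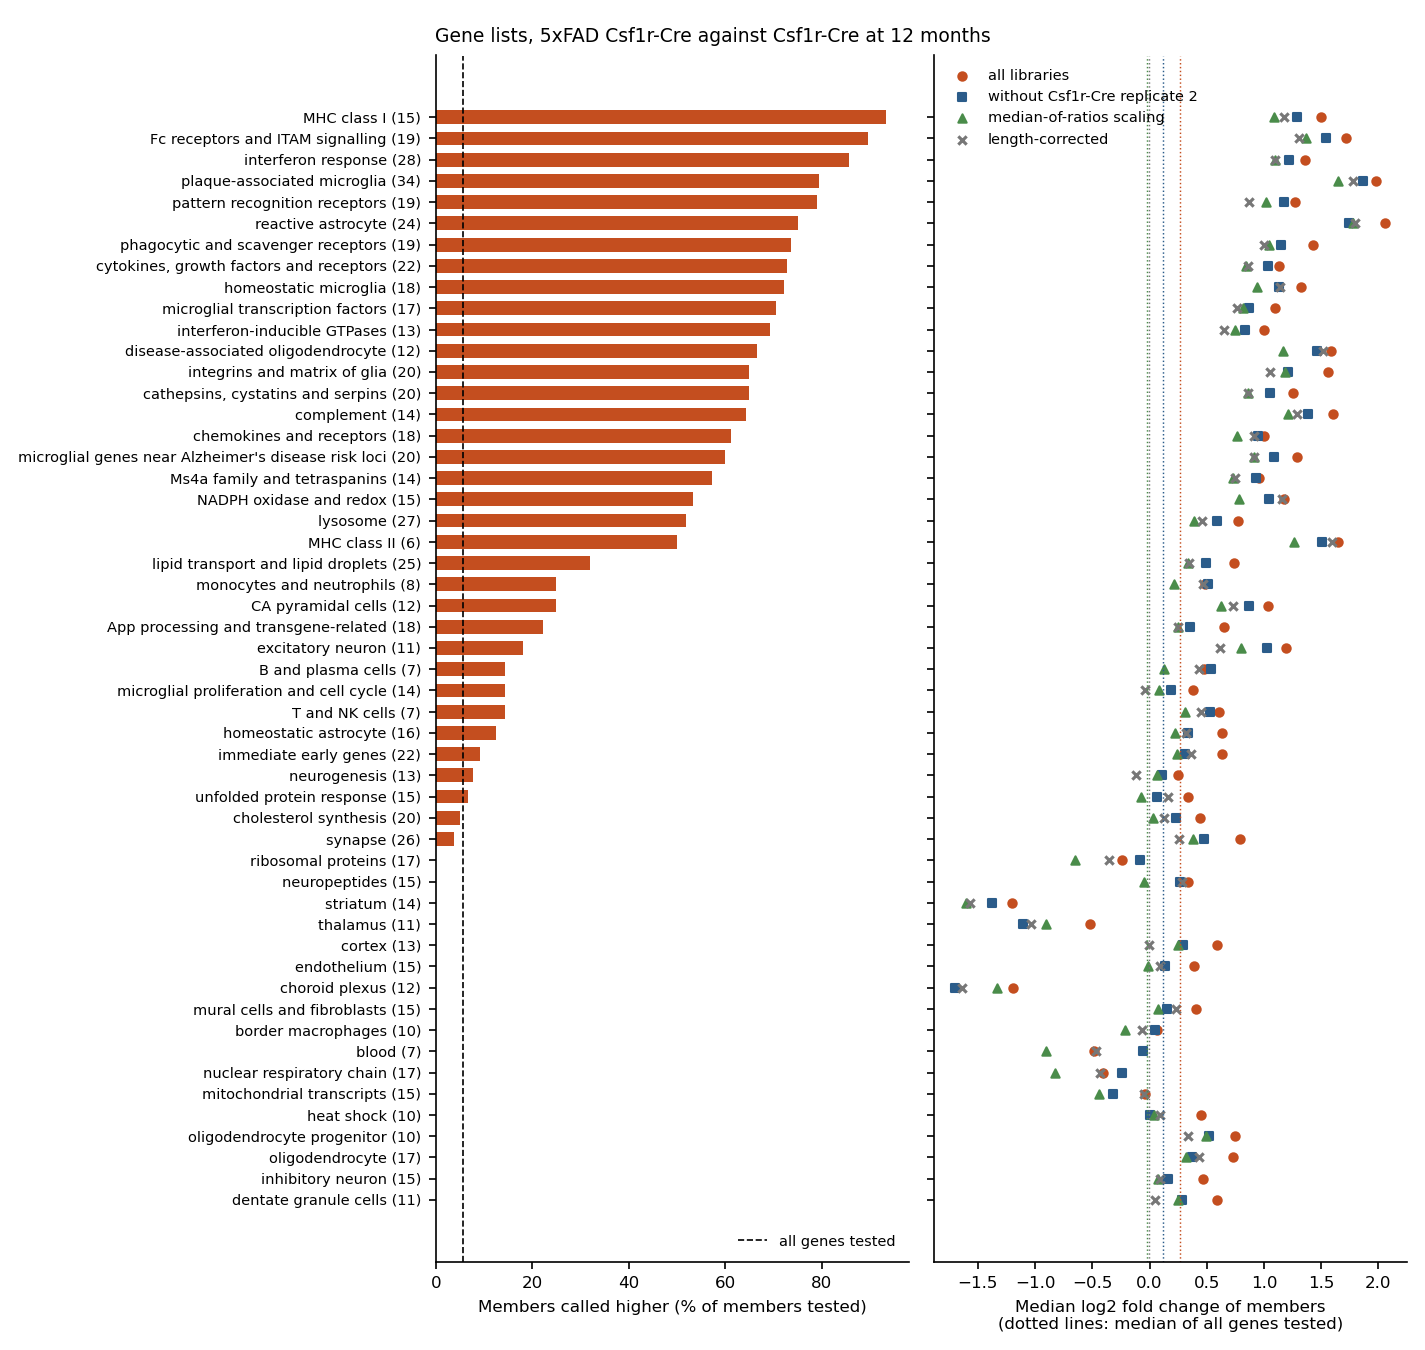
Share of tested members called higher in 5xFAD Csf1r-Cre (left, %, dashed line at the 5.66% of all genes tested) and median log2 fold change of the members (right) for gene lists with at least 6 tested members, whose number stands in brackets. Symbols on the right give the fit on all libraries, without Csf1r-Cre replicate 2, after median-of-ratios scaling and after correction for gene length, and dotted lines the median of all genes in each. In each of the 4 settings the plaque-associated microglia, homeostatic microglia, interferon response and reactive astrocyte lists lie above the median of all genes, and the striatum, choroid plexus and ribosomal lists below it.

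Oligodendrocyte markers did not pass: of 17 oligodendrocyte and 10 progenitor genes none was called, with medians of 0.73 and 0.75, or 0.37 and 0.52 without Csf1r-Cre replicate 2. Of 12 genes known from disease-associated oligodendrocytes, 8 rose, but 5 of these, C4b, Serpina3n, B2m, H2-K1 and H2-D1, also stand in the complement, astrocyte or class I lists. The remaining 3 were Cd9, Klk6 and Anxa2. Lipid genes moved in part. Of 25 lipid transport and droplet genes 8 rose, and of 20 cholesterol synthesis genes 1, the dehydrogenase Hsd17b7, which lost the call without Csf1r-Cre replicate 2 (adjusted p = 0.0723), without its replicate 4, or without 5xFAD Csf1r-Cre replicate 2 or 4 (up to 0.154). Ch25h, which makes 25-hydroxycholesterol, was at 11.1, 5.51, 2.14, 2.79 and 2.42 TPM against 0.0583 to 1.18 TPM (median 0.248) (log2 fold change 2.46 ± 0.36 (SE), adjusted p = 5.32e-06). Abca1, the exporter of cholesterol to Apoe particles, was at 14, 36.7, 4.16, 17.7 and 11.1 TPM against 0.311 to 6.89 TPM (median 3.44), and Mylip, a ligase that degrades the LDL receptor, at 19.9, 19.4, 8.98, 14.3 and 13 TPM against 1.04 to 9.81 TPM (median 6.46). These 2 targets of the liver X receptors overlapped between groups and passed (log2 fold change 2.05 ± 0.44 (SE), adjusted p = 0.00196, and log2 fold change 1.32 ± 0.30 (SE), adjusted p = 0.00338). Clu, the second main lipid carrier of astrocytes, was at 2093, 3668, 1356, 2885 and 2726 TPM against 195 to 1869 TPM (median 1012) (log2 fold change 1.38 ± 0.33 (SE), adjusted p = 0.00529). Its 5xFAD replicate 3 lay within the Csf1r-Cre range, and the log2 fold change was 1.01 without Csf1r-Cre replicate 2 (adjusted p = 0.0108).

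Some neuronal genes passed, and the 4 described here did not pass without the libraries high in striatal markers. Of 26 synapse genes 1 rose, Grin2a, of 11 excitatory neuron genes 2, Neurod2 and Rtn4rl2, of 12 CA pyramidal genes 3, Fibcd1, Nr3c2 and Dkk3, and of 15 inhibitory and 11 dentate granule genes none. Beside the 5.66% of all genes tested that were called higher, the excitatory and CA pyramidal shares were larger. Those of the synapse, inhibitory and dentate granule genes were smaller. Without Csf1r-Cre replicate 2 the numbers were 1 of 26, 1 of 11 and 0 of 12. Without Csf1r-Cre replicates 1, 4 and 7, those high in striatal markers, 1 of 12 CA pyramidal genes was called higher. None of the synapse, excitatory, inhibitory and dentate granule genes was called in that fit. Neurod2, a factor of forebrain glutamatergic neurons, was at 35.6, 48.2, 33, 41.5 and 61.7 TPM with 5xFAD, and at 9.19, 7.24 and 1.95 TPM in Csf1r-Cre replicates 1, 4 and 7 and 9.42 TPM in replicate 2. In Csf1r-Cre replicates 3, 5 and 6 it was at 35.4, 42.9 and 36.1 TPM, within the 5xFAD range. Its call (log2 fold change 1.63 ± 0.44 (SE), adjusted p = 0.0176) was lost without replicates 1, 4 and 7, when 6.2% of genes were called and 5.95% higher, at 0.66 and adjusted p = 0.213. With fewer samples, 3 others did not pass either. Rtn4rl2, a Nogo receptor family member, had a log2 fold change of 1.38 (adjusted p = 0.0387) with and 0.65 (adjusted p = 0.259) without those 3 libraries. Grin2a, an NMDA receptor subunit, had a log2 fold change of 1.47 (adjusted p = 0.013) with and 1.34 (adjusted p = 0.0623) without those 3 libraries. Dkk3 had a log2 fold change of 1.30 (adjusted p = 0.0205) with and 1.12 (adjusted p = 0.0869) without those 3 libraries. The median log2 fold change went from 0.79 to 0.95 for the 26 synapse genes and from 1.04 to 0.97 for the 12 CA pyramidal genes. All 4 also lost the call without 5xFAD Csf1r-Cre replicate 2 (adjusted p = 0.0613, 0.09, 0.0684 and 0.092), and Neurod2, Rtn4rl2 and Dkk3 without further single libraries of either group. Striatal markers themselves did not pass, and the median log2 fold change of the 14 was -1.20. Choroid plexus markers did not pass either, the folate receptor Folr1 having log2 fold change -2.09 ± 1.26 (SE), adjusted p = 0.256. Without those 3 libraries and Csf1r-Cre replicate 2 together, 369 genes were called higher (1.98%, and 1.99% of genes in either direction). Among them were 22 of 34 plaque-associated, 12 of 18 homeostatic and 15 of 24 reactive astrocyte genes, and 8 of 28 interferon response genes. With the same 4 libraries omitted, the number called was 2 of 13 interferon-inducible GTPases (9 with all libraries), 2 of 25 genes of lipid transport and lipid droplets (8), 5 of 14 complement genes (9), 9 of 19 pattern recognition receptors (15) and 9 of 15 MHC class I genes (14). This fit keeps 3 of the 7 Csf1r-Cre libraries. It also keeps 5xFAD Csf1r-Cre replicate 2, at 1676 TPM of striatal markers, and the median log2 fold change of the 14 striatal markers was 0.66 in it.

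Markers of border macrophages and blood cells were given by their summed level in each library. Border macrophage markers summed to 11.8 to 32.2 TPM with 5xFAD and 10.1 to 25.9 TPM without, and 0 of 10 passed. Monocyte and neutrophil markers summed to 9.67 to 26.3 TPM with 5xFAD and 3.99 to 9.13 TPM without, so that the groups did not overlap. Csf3r alone, at the levels given above, made up most of the sums of 17.4, 22.2 and 21.2 TPM in 5xFAD replicates 1, 2 and 4. Without Csf3r, 5xFAD replicate 1 would lie below Csf1r-Cre replicate 2, so the separation rested on this gene. B and plasma cell markers summed to 39.9 to 249.9 TPM and 11.3 to 50.8 TPM, T and NK cell markers to 8.22 to 27.6 TPM and 4.79 to 36.4 TPM, and 7 blood markers to 306 to 727 TPM and 429.6 to 3078 TPM, and in these 3 the groups overlapped. Of 8 tested monocyte and neutrophil genes 2 rose, Csf3r, which also stands among the receptors above, and Ly6c2. The number was 1 without Csf1r-Cre replicate 2, with median-of-ratios scaling and with length correction. Of 7 tested T and NK cell genes 1 rose, the granule protein Nkg7, at 3.21, 0.628, 1.32, 0.662 and 1.23 TPM against 0 to 0.702 TPM (median 0.226) (log2 fold change 1.32 ± 0.29 (SE), adjusted p = 0.0027), with 2 5xFAD samples inside the Csf1r-Cre range. The B cell gene Ighm, the constant region of IgM, was at 38.4, 38.8, 52.2, 50.4 and 34.4 TPM against 8.84 to 26.8 TPM (median 11.1) without overlap (log2 fold change 1.60 ± 0.30 (SE), adjusted p = 0.000311). Ccr2, Cd3e, Cd8a and Ms4a1, which define monocytes, T cells and B cells, were too low to be tested. The part of such cells in the microglial results was not tested. Of 15 genes of the unfolded protein response, Atf3, a stress-induced factor, rose (log2 fold change 1.81 ± 0.32 (SE), adjusted p = 0.000102), and none of 10 heat shock genes passed.

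Genes called lower were fewer, mostly short, and more dependent on single libraries. Their median listed length was 2086 bases, against 4244.5 for genes called higher and 3550.0 for all tested. After correction for the length trend of each library, 705 genes were called higher (3.78%) and 363 lower (5.72% in both directions), 661 and 63 of them shared with the uncorrected fit. Omitting Csf1r-Cre replicate 2, 3 or 7 gave 45, 274 or 37 lower calls. Omitting a 5xFAD Csf1r-Cre library gave 34 (replicate 1), 8 (replicate 2), 207 (replicate 3) or 21 (replicate 4). Tpd52l1, a small adaptor of the tumour protein D52 family, had the smallest p of the lower genes, at 38, 30.3, 35.5, 24.8 and 53.7 TPM with 5xFAD and 59.4 to 99.8 TPM (median 80.8) without, and the groups did not overlap (log2 fold change -1.14 ± 0.20 (SE), adjusted p = 0.000136). It was called in each fit that left out 1 library, and at adjusted p = 0.00622 without the 3 libraries high in striatal markers, but not when Csf1r-Cre replicate 2 was left out as well (adjusted p = 0.0623). Gstt2, a glutathione transferase, was at 4.1, 2.85, 3.73, 2.44 and 3.88 TPM against 4.64 to 10.6 TPM (median 6.98), Cthrc1, a secreted collagen repeat protein, at 11, 12.2, 16.3, 14 and 17.3 TPM against 18.1 to 31 TPM (median 23.1), and Cth, the cystathionine gamma-lyase, at 4.09, 5.18, 4.78, 6.27 and 5.46 TPM against 7.67 to 10.8 TPM (median 8.33). These were apart between groups as well and fell by 0.98, 0.76 and 0.74 on the log2 scale (limma adjusted p = 0.00713, 0.011 and 0.0153), but Cthrc1 lost the call without 5xFAD Csf1r-Cre replicate 1 or 2 and Cth without replicate 1. Hes5, a Notch target in neural progenitors and astrocytes, was at 1.76, 2.16, 6.79, 6.54 and 6.47 TPM against 5.13 to 15 TPM (median 10.004), lowest in 5xFAD replicates 1 and 2 (log2 fold change -1.08 ± 0.34 (SE), adjusted p = 0.0454), and lost the call without Csf1r-Cre replicate 2 (adjusted p = 0.0835), its replicate 1, 4 or 7, or 5xFAD Csf1r-Cre replicate 1 or 2 (up to 0.208). Btbd17, Ctxn2, Enho, which encodes the peptide adropin, and Mrap2, a melanocortin receptor accessory protein, had log2 fold changes of -0.90, -0.82, -0.73 and -1.21 (limma adjusted p = 0.00499, 0.0127, 0.00192 and 0.0445). Their groups overlapped, Ctxn2 lost the call without 5xFAD Csf1r-Cre replicate 2 (0.123), and Mrap2 lost it in 8 of the 12 omissions of 1 library (all but Csf1r-Cre replicates 2 and 3 and 5xFAD Csf1r-Cre replicates 3 and 5).

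The 3 lower genes with the largest fold changes were highest in the Csf1r-Cre libraries that held the most choroid plexus or striatal markers. Spint2, a protease inhibitor of epithelia, was at 74.4, 133 and 109 TPM in Csf1r-Cre replicates 1, 6 and 7, the libraries high in choroid plexus markers, and at 10.5, 27, 16.2, 20.3 and 30.4 TPM with 5xFAD. In the other 4 Csf1r-Cre samples it was at 26.1 to 36.5 TPM (log2 fold change -1.37 ± 0.42 (SE), adjusted p = 0.0416). Serpinb1b, an intracellular serpin, was highest in the same 3 samples, at 10.02, 17.3 and 14.1 TPM, against 0.399, 2.57, 1.87, 0.829 and 2.11 TPM with 5xFAD (log2 fold change -1.76 ± 0.53 (SE), adjusted p = 0.0391). Tmem91, a transmembrane protein, was highest in replicates 1, 4 and 7, at 24.9, 34.2 and 35.3 TPM, against 4.3, 5.27, 4.77, 6.82 and 13 TPM with 5xFAD (log2 fold change -1.42 ± 0.40 (SE), adjusted p = 0.0254). Without replicates 1, 4 and 7 none of the 3 was called (adjusted p = 0.115, 0.132 and 0.179). That fit has fewer samples and keeps Csf1r-Cre replicate 6, the highest sample for Spint2 and Serpinb1b. Leaving out replicates 1, 6 and 7 together was not tested. Each of the 3 genes also lost the call without Csf1r-Cre replicate 7 or 5xFAD Csf1r-Cre replicate 1, 2 or 4 alone, Spint2 and Serpinb1b without Csf1r-Cre replicate 1 or 6, and Tmem91 without Csf1r-Cre replicate 4. Among 15 mitochondrially encoded transcripts 1 fell, mt-Co3, a subunit of cytochrome c oxidase, which was at 548, 217, 412, 192 and 228 TPM against 354 to 1965 TPM (median 600.1) (log2 fold change -1.32 ± 0.32 (SE), adjusted p = 0.00591). The part of the striatal and choroid plexus markers in these decreases was not tested. Nuclear genes of mitochondrial proteins among the lower calls were Bola3 and Fmc1, assembly factors of iron-sulfur clusters and of the ATP synthase, and Alkbh7, a mitochondrial dioxygenase, with log2 fold changes of -0.68, -0.71 and -0.74 (limma adjusted p = 0.0126, 0.0136 and 0.00285). Csf1r-Cre replicate 2 was the highest sample for all 3, and without 5xFAD Csf1r-Cre replicate 2 Bola3 and Fmc1 lost the call (0.114 and 0.0893), Fmc1 also without replicate 4. Of 17 nuclear respiratory chain genes 2 fell, Uqcrb and Cox5a. Hdhd3, a haloacid dehalogenase-like hydrolase, had log2 fold change -0.75 ± 0.18 (SE), adjusted p = 0.00564 (0.0506 without 5xFAD Csf1r-Cre replicate 2). When the Csf1r-Cre libraries high in striatal markers and the one that stands apart were all omitted, 2 genes in all were called lower (0.0107%), neither of them among the 68.

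**Figure D4:**
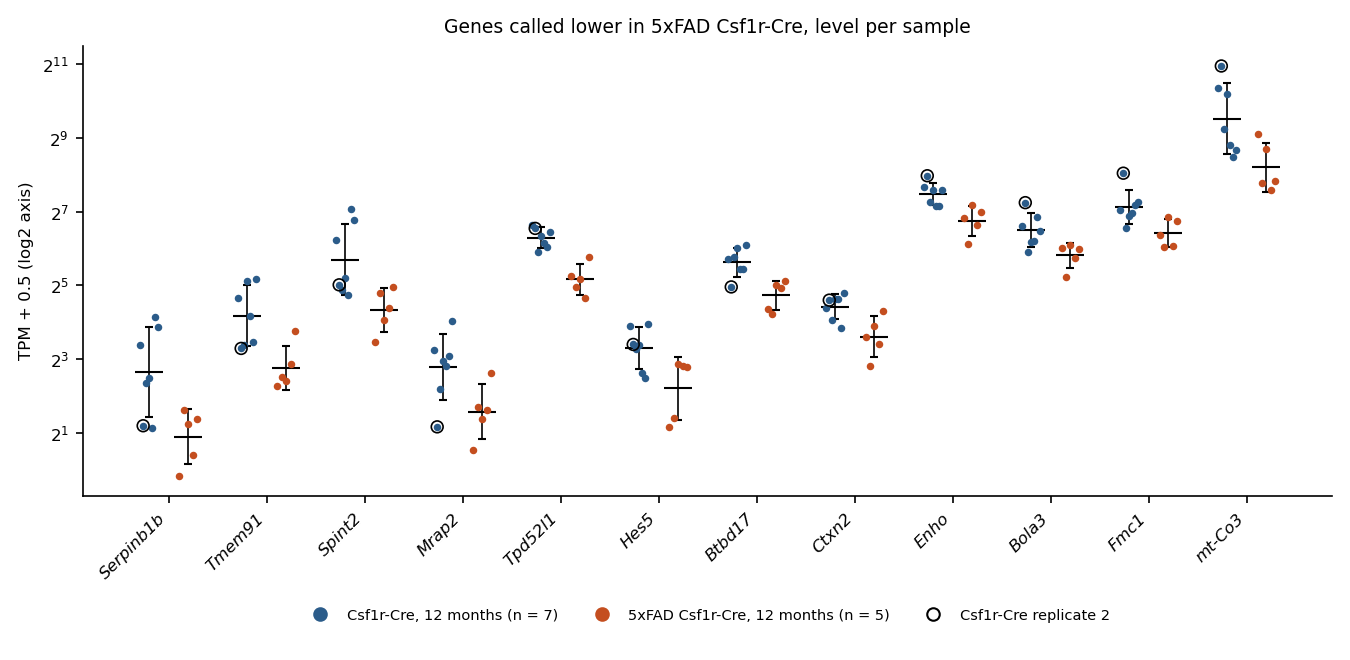
TPM + 0.5 on a log2 axis for 12 genes called lower in 5xFAD Csf1r-Cre, drawn as in the plot of 15 raised and control genes. Tpd52l1 is the gene of the 12 whose groups do not overlap, and Csf1r-Cre replicate 2 (circle) is the highest sample for Enho, Bola3, Fmc1 and mt-Co3.

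In the fit over all 45 libraries, the effect at 12 months was larger than at 4 months for many of these genes. In the 4 5xFAD Csf1r-Cre and 6 Csf1r-Cre samples of 4 months, 1 gene, Ccl6, was called (0.00536%), with 959 genes at an unadjusted p under 0.05. The difference between ages, tested in the same limma model, passed for 83 genes (0.445%), 79 with a more positive effect at 12 months and 4 (0.0214%) with a more negative one. Of 34 plaque-associated genes 7 passed this test, of 24 reactive astrocyte genes 6, of 20 cathepsins, cystatins and serpins 4 and of 18 homeostatic microglial genes 0. Hpse changed by 0.22 ± 0.35 at 4 months and by 3.33 ± 0.32 at 12, and the difference was 3.11 (adjusted p = 0.000617). Itgax went from 1.27 to 4.73 (difference 3.46, adjusted p = 0.00147), Plau from 0.12 to 2.84 (0.000617) and Ptprc from -0.15 to 2.14 (0.00215). The median difference over all genes tested was 0.38. For the 17 oligodendrocyte markers, of which 0 passed, it was 1.45, beside 1.46 for the 34 plaque-associated genes. At 4 months all 17 oligodendrocyte markers had fold changes below 0 (median -0.72), and so did all 14 striatal markers (median -1.26). The part of tissue content in the differences between ages was not tested. Spp1 had the largest difference of the named genes, 4.05, from -0.55 at 4 months (adjusted p = 0.0377). Gfap changed by 0.91 ± 0.42 at 4 months and by 3.298 at 12 (difference 2.39, adjusted p = 0.0425). Ccl6 stood at 2.78 at 4 months and 3.16 at 12, and its difference did not pass (adjusted p = 0.697), nor did those of Trem2 (1.08 and 2.34, 0.101) and Thy1 (0.98 and 1.69, 0.246). Among the 4 genes with a more negative effect was Tpd52l1, at 0.11 at 4 months. The number that passed depended on the fit and on single libraries. In a fit on the compared groups alone it was 0. It was 3 with a pseudocount of 0.1 and 6 when 4 Csf1r-Cre libraries of 12 months (1, 2, 4 and 7) were omitted. Without single 5xFAD Csf1r-Cre libraries of 12 months it was 10, 8, 416 and 24 (replicates 1 to 4), and without single Csf1r-Cre libraries 53, 259 and 43 (replicates 2, 3 and 5). Without single libraries of 4 months it was 11, 20 and 36 (5xFAD Csf1r-Cre replicates 2 to 4) and 45, 25 and 42 (Csf1r-Cre replicates 2, 4 and 6).

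**Figure D5:**
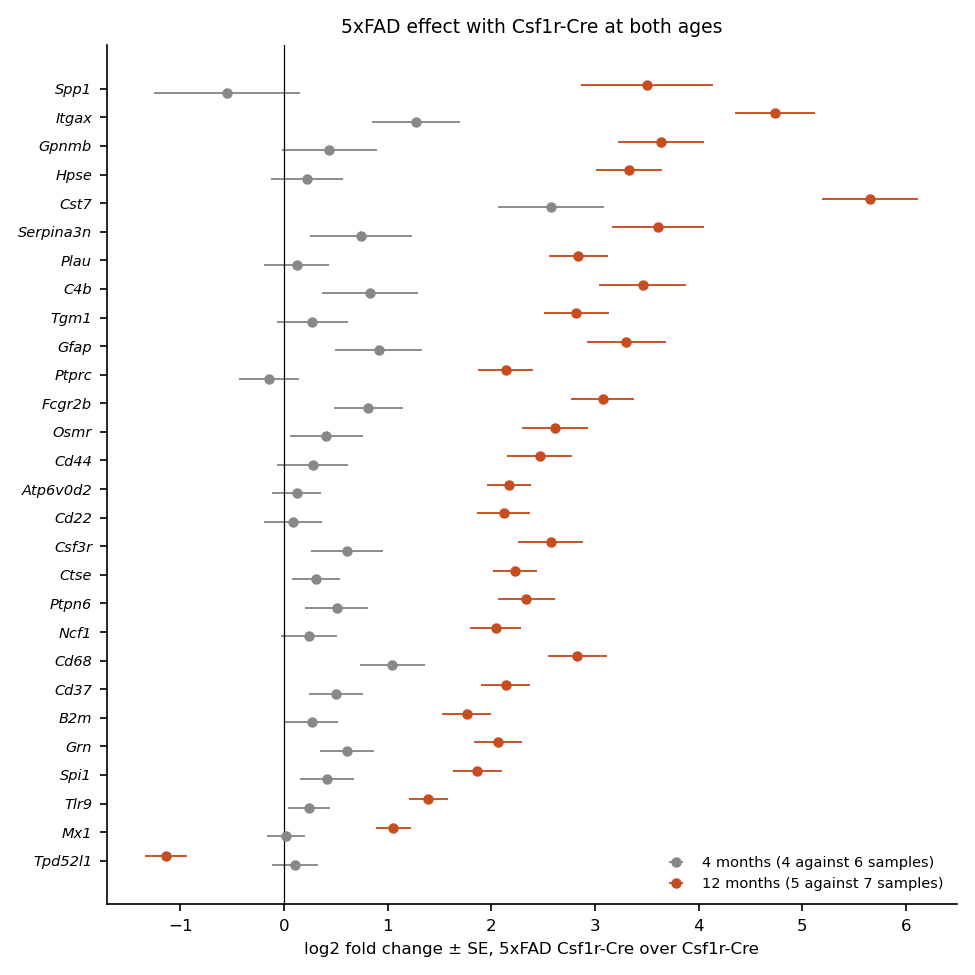
Log2 fold change ± SE of 5xFAD Csf1r-Cre over Csf1r-Cre at 4 months (grey) and 12 months (orange) for the named genes whose difference between ages passed the test, ordered by that difference. Tpd52l1 lies below 0 at 12 months, and the other genes lie above 0 at 12 months and closer to 0 at 4 months.

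Without Csf1r-Cre, 330 genes (1.77%) were called with 5xFAD, of which 306 were higher (1.64%) and 24 lower (0.129%) at 12 months. Replicate 2 of the 3 controls without Csf1r-Cre also stood apart, with a median correlation of 0.939 with the other libraries and 16238 genes above 0. Without the libraries that stand apart, 129 genes were called, 124 higher and 5 lower. With all libraries, the 14 striatal markers had a median log2 fold change of -1.64 without Csf1r-Cre, beside -1.20 with it. The samples titled 5xFAD without Cre carry a strain entry that names Csf1r-cre, so titles and strain entries disagree, and the titles were followed. The difference of the effect, with minus without Csf1r-Cre, passed for 0 of 18659 genes in limma, with 2156 genes at an unadjusted p under 0.05. That number was 699 without replicate 2 of the controls lacking Csf1r-Cre and 744 without the libraries that stand apart, and again 0 genes passed. The median difference over all genes tested was 0.21, and 0.003 without the libraries that stand apart. All 6 tested MHC class II genes had a difference below 0 (median -1.28). All 26 synapse and all 22 immediate early genes had one above 0 (medians 1.04 and 1.14). Effects with and without Csf1r-Cre, from separate samples, were 5.65 and 4.98 for Cst7, 4.73 and 4.63 for Itgax, 3.298 and 2.80 for Gfap and 0.40 and 0.38 for Apoe. Cd72, an inhibitory lectin of B cells and microglia, had 2.28 ± 0.33 with and -0.09 ± 0.39 without Csf1r-Cre, Gdf7, a bone morphogenetic protein, 0.53 ± 0.22 and -1.20 ± 0.26, and Coprs, a histone-binding partner of the methyltransferase Prmt5, -0.75 ± 0.22 and 0.90 ± 0.26. These were among the 10 smallest p for the difference and did not pass (adjusted p = 0.134, 0.0985 and 0.0985). The control group without Csf1r-Cre has 3 samples, and without its replicate 3 the difference passed for 33 genes, without its replicate 1 for 1, without replicate 7 of the 5xFAD samples lacking Csf1r-Cre for 1 and without 5xFAD Csf1r-Cre replicate 3 for 5.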

How the data were processed

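The authors deposited 1 table of TPM values for 54532 mouse genes in 45 hippocampal libraries, with mm10 coordinates. Per the labels' protocols, RNA was extracted from frozen, dissected hippocampus with a column kit and sequenced as paired ends on NovaSeq and HiSeq instruments. The labels do not tie an instrument or batch to a sample, so no value within batches could be given. The build was mm10 and the tools limma, edgeR, featureCounts and STAR, per the submitters' processing notes. Their versions, the strand setting and the handling of multi-mapping reads are not stated in those notes as used here. Columns were joined to samples by the sample description. Reads in genes were estimated from the steps between low values, which were whole multiples within 0.02 reads for all 22910 genes above 0 in at least 10 samples (with a length fitted per gene, since the listed length gave this for 15330 of 33023 genes above 0), and depth limits the lowest genes: per kilobase of gene, 1 read equalled 0.0577 to 0.0875 TPM. No counts were used in a test.

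Genes with at least 0.5 TPM in at least 3 of 45 samples were fitted as log2(TPM + 0.5) with 1 mean per group over all samples by limma 3.58.1 in R 4.3.3, with a mean trend. Tests were two-sided, p-values were adjusted by Benjamini and Hochberg over the 18659 genes, and the threshold was 0.05. All adjusted p-values come from this model, for 3 comparisons: 5xFAD in Csf1r-Cre mice at 12 months, its difference from the effect without Csf1r-Cre, and its difference from 4 months. The effects without Csf1r-Cre and at 4 months come from the same model. Apoe had an exact permutation test. The fit was tested on simulated data. These had independent values for each gene and no shift shared by the genes of a library. The simulation therefore does not cover the differences between libraries described above. The members, the 52 gene lists and the tests were chosen with earlier results of these data known, so no count over a list is independent evidence. Named genes were Apoe, App and Thy1, the 20 highest and 20 lowest called fold changes with a group mean of 1 TPM or more, up to 5 genes per list with the smallest p, the 10 smallest p of each difference, and the called genes with the largest fold changes among those with a promoter match, leaving out predicted models and 6 sex-linked genes. Some genes the rule takes are not reported here. Reads of near-identical genes may be split, and fold changes of low genes are understated. Replicate numbers did not pair samples (correlations of same-numbered deviations -0.50 to 0.15). Alternatives were other pseudocounts, filters, scalings and weights, single libraries left out and, chosen after seeing the data, leaving out libraries by striatal marker level and a correction for gene length (the median deviation of each library in 20 length bins).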

Additional observations from a re-analysis of the deposited data

Results flagged for a closer look

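In 39 of 234 groups of named genes, counting both groups for each of 117 genes, 1 sample lay farther from the others on the log2 scale than Dixon's criterion allows at 95%. Chance flags about 1 in 20 groups. Csf1r-Cre replicate 2, which stood apart from all libraries, was that sample in 36 of them. It was the lowest sample, with levels in TPM, for Apoe 1292, App 30.6, Thy1 244, Sorl1 4.79, Adam17 0.271, Fcgr2b 0.519, Tlr9 0.034, Tlr13 0.162, Ncf1 1.06, Hvcn1 0.077, Csf3r 0.0287, Tnfrsf1b 0.423, Grn 23.9, Laptm5 20.3, Runx1 0, Fcrls 11 and Olfml3 9.7. It was also the lowest for P2ry13 3.30002, Cx3cr1 2.57, C1qc 87.9, C3ar1 0.247, C4b 5.13, B2m 113, H2-D1 29.7, Oasl2 0.0891, Irgm1 0.956, Igtp 0.158, Aqp4 4.18, Mlc1 104, Mylip 1.04, Clu 195, Ccnd1 4.15, Mcm3 0.307 and Vav1 0.173. It was the highest for Trem2 24.7 and Tyrobp 102 TPM. Atp6v0d2 was highest in Csf1r-Cre replicate 7, at 0.0396 TPM. Lcn2 was highest in Csf1r-Cre replicate 1, at 2.09 TPM. Cd44 was highest in 5xFAD Csf1r-Cre replicate 2, at 26.4 TPM. Of 95 named genes called higher with all libraries, 87 were called without Csf1r-Cre replicate 2, and of 18 called lower, 16.

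The effect of 5xFAD in Csf1r-Cre mice differed between 12 and 4 months for 28 named genes, by the limma test of the difference. On the log2 scale, 12 minus 4 months, the differences were Cst7 3.08, Itgax 3.46, Gpnmb 3.20, Spp1 4.05, Cd68 1.79, Atp6v0d2 2.05, Fcgr2b 2.26, Ptpn6 1.83, Tlr9 1.15, Ncf1 1.80, Csf3r 1.96, Osmr 2.21, Ctse 1.91 and Grn 1.46. For the others they were Hpse 3.11, Plau 2.71, Tgm1 2.55, Spi1 1.45, C4b 2.63, B2m 1.49, Mx1 1.04, Gfap 2.39, Serpina3n 2.87, Cd44 2.19, Tpd52l1 -1.24, Ptprc 2.28, Cd22 2.03 and Cd37 1.63.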

How the results depend on the processing

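Of 117 named genes 113 were called with 5xFAD in Csf1r-Cre mice at 12 months. Of these, 67 of 95 higher and 0 of 18 lower genes kept the same call in every alternative except the replicate block, and none changed sign. The fit on the 12 libraries alone called 275 genes (272 higher, 3 lower), array weights 3174 (2747 and 427), and leaving out Csf1r-Cre replicates 1, 2, 4 and 7 called 371 (369 and 2). Leaving out single libraries gave 532 to 3019 genes, 524 to 2745 higher and 8 to 274 lower. Lower calls were 404 with median-of-ratios scaling, 363 with length correction and 167 after rescaling without the top gene and mitochondrial transcripts. The difference with minus without Csf1r-Cre passed for 0 genes, for 2 with a pseudocount of 1, 1 without a filter, 1 with median-of-ratios scaling, 4 with array weights, 2 with length correction and 0 to 33 without single libraries. The difference between ages passed for 83 genes, for 3 and 152 with pseudocounts of 0.1 and 1, 46 without a filter, 54 with median-of-ratios scaling, 0 on the compared groups alone, 606 with array weights, 169 without Csf1r-Cre replicates 1, 4 and 7, 6 without replicate 2 as well, and 8 to 416 without single libraries. The cause of these shifts was not tested.

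Apoe was at 0.40 on the log2 scale and -0.0109 with median-of-ratios scaling, and without single libraries at 0.20 to 0.48; the exact permutation p was 0.0303 without Csf1r-Cre replicate 3. With the replicate number as a block, 0 genes were called in the main comparison (0 higher, 0 lower) and 0 for the difference between ages. Same-numbered samples did not deviate together (correlations -0.24, -0.31, -0.50, 0.15 and 0.03 for numbers 1 to 5), so the numbers name samples and pair none. Depth limits genes near 0.5 TPM, where a few reads set the value.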

Other observations

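Several gene groups of the same comparison are not described above. Of 20 integrin and matrix genes of glia 13 rose, with a median log2 fold change of 1.56 (1.21 without Csf1r-Cre replicate 2). Of 20 microglial genes known from genetic studies of Alzheimer's disease risk, 12 rose, and Bin1, Abca7, Picalm, Ptk2b, Cd2ap, Sppl2a, Tmem163 and Adam10 did not pass. Of 22 immediate early genes 2 rose, Nr4a3, a nuclear receptor, and Gadd45b, a stress-response gene. In other fits, 0 of 22 were called without Csf1r-Cre replicate 2, 0 with median-of-ratios scaling and 0 without Csf1r-Cre replicates 1, 4 and 7, and the median of 0.63 was -0.01 without all 4 of these libraries. Of 13 tested neurogenesis genes 1 rose and 1, Hes5, fell. None of 15 endothelial, 15 mural and fibroblast, 15 neuropeptide, 11 thalamic, 13 cortical, 7 blood and 17 ribosomal protein genes was called in either direction.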
